A study of Homo sapiens with 20 samples.

Results

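KLF10 and 9 of its Krüppel-like family relatives were followed as 10 genes of the 23368 in the count tables. The relatives were KLF11, KLF3, KLF4, KLF5, KLF6, KLF7, KLF9, KLF13 and KLF16, each taken by its gene symbol. KLF10 was the target of the siRNA, and the question put to the relatives was whether any stood higher where KLF10 stood lower. The RNA came from Panc1, a human pancreatic ductal carcinoma line, and A549, a human lung adenocarcinoma line, and the labels describe both as immortalized with SV40 large T antigen. Each line had 4 groups: an siRNA against KLF10 with TGFβ (siKLF10+TGFβ), TGFβ with no siRNA named in the labels (TGFβ), the siRNA alone (siKLF10), and a control siRNA (siCont). The labels do not say whether the TGFβ libraries also received the control siRNA. Effects named here for the siRNA with TGFβ, for TGFβ without siKLF10, or for a changed TGFβ response cannot be told apart from transfection. TGFβ was applied at 5 ng/ml for 72 h, and poly(A) RNA was sequenced from directional libraries. Panc1 had 3 libraries in each group, lettered A, B and C, and A549 had 2, so 20 libraries in all. The labels do not say that libraries of a group came from separate cultures, so p-values speak only to how much these libraries scattered, and that scatter could be technical.

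Krüppel-like factors bind GC-rich and CACCC-type DNA through zinc fingers at the C terminus, and differ in the N-terminal part that recruits partner proteins. KLF10 and KLF11 form the TGFβ-inducible early gene pair, and they share with KLF9, KLF13 and KLF16 a motif that recruits the SIN3 corepressor. KLF3 works through the CTBP corepressors, while KLF4, KLF5, KLF6 and KLF7 carry activation domains. In epithelial cells KLF4 and KLF5 are known for their roles in differentiation and in proliferation, and TGFβ is known to drive the epithelial-to-mesenchymal transition.

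The DNA just upstream of the relatives that moved most often with the siRNA is shown because members of the family bind such sequence. These were KLF11, KLF6 and KLF5, each called in more than 1 of the 4 comparisons of siKLF10 libraries with their controls. RefSeq's promoter table (GRCh38.p14) held 13 start sites for 8 of the 10 genes, and the windows are the 250 bases before each start. Capitals mark every match on either strand of the GC box GGGCGG, the CACC box CACCC, the SMAD box CAGAC and the AP-1 site TGANTCA.
KLF11, upstream start, chr2:10043579-10043828, plus strand: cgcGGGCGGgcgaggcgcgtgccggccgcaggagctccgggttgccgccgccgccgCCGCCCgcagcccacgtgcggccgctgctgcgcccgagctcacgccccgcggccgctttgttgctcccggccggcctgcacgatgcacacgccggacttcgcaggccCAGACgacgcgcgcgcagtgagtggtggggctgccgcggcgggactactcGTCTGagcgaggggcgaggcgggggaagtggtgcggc
KLF11, downstream start, chr2:10043971-10044220, plus strand: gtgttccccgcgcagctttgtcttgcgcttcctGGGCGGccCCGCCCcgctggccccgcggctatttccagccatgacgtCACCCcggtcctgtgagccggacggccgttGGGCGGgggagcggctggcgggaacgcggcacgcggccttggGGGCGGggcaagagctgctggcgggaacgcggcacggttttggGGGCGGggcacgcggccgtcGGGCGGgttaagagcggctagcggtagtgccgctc
KLF6, chr10:3785210-3785459, minus strand: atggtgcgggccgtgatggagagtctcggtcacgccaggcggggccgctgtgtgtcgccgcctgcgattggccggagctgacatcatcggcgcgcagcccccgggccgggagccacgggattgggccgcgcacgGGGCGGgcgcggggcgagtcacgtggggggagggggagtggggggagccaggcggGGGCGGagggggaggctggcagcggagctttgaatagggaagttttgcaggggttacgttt
KLF5, upstream start, chr13:73054726-73054975, plus strand: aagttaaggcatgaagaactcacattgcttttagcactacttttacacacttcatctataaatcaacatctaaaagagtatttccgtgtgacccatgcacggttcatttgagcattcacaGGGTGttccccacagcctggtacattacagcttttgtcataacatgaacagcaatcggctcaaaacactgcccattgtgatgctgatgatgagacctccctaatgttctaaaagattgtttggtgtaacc
KLF5, downstream start, chr13:73058755-73059004, plus strand: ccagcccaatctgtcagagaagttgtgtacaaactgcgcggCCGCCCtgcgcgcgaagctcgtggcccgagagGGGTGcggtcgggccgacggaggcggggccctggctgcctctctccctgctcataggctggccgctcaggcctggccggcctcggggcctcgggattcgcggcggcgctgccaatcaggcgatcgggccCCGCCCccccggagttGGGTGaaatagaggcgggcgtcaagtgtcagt
The upstream KLF11 window held 2 GC boxes and 2 SMAD boxes, and the downstream one held 6 GC boxes and 1 CACC box. The KLF6 window held 2 GC boxes, and of the KLF5 windows the upstream one held 1 CACC box and the downstream one 2 GC boxes and 2 CACC boxes. Among all 35116 windows of this length, 42.6% held the GC box, 54.7% the CACC box, 38.0% the SMAD box and 6.57% the AP-1 site. Base composition was 78.8% and 74.4% G or C in the KLF11 windows, 72.4% in the KLF6 window and 40.8% and 70.8% in the upstream and downstream KLF5 windows, against a median of 58.0% over all windows. Of the relatives with no siRNA call, the KLF16 window held 7 GC boxes, that of KLF4 4, that of KLF13 3 and that of KLF9 0. For KLF7, 1 window held 4 GC boxes and the others 0. GC boxes were thus not particular to the windows shown, which were chosen by the siRNA calls, and a link of motifs to those calls was not tested. A match is a run of letters and no evidence of binding. No motif match overlaps another in the sequences shown.

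Depth and identity were checked over the whole series. Gene counts summed to between 11152625 and 15571367 in the Panc1 libraries and to between 6846761 and 19070551 in A549. All 10 genes passed the filter on low counts in both lines, with 13218 genes tested in Panc1 and 14124 in A549. Levels in CPM are TMM-scaled counts relative to library size. Of the 4 epithelial markers, KRT8 measured 245 to 569 CPM and KRT18 121 to 225 CPM in Panc1, where EPCAM (1.91 to 12.2 CPM) and CDH1 (1.56 to 18.7 CPM) were low, and in A549 all 4 were at 20.3 CPM or more. Of the 3 duct markers in Panc1, SOX9 measured 202 to 255 CPM, KRT19 36.1 to 236 CPM and KRT7 only 2.86 to 26.6 CPM. The acinar and islet markers PRSS1, CPA1, PNLIP and INS were at 0 there, and GCG was at most 0.151 CPM. In A549, KRT7 measured 2188 to 4233 CPM, SOX9 37.7 to 132 CPM and KRT19 only 0.402 to 4.56 CPM. The lung markers NKX2-1, SFTPB, SFTPC, SFTPA1 and SCGB1A1 stayed below 0.79 CPM in A549, and NAPSA, the sixth of the list, measured 0.506 to 1.67 CPM. The Panc1 siCont library A stood apart in KRT5, a basal keratin, with 60.7 CPM against 21.8 and 22.3 CPM in siCont B and C and 5.34 to 9.52 CPM in the 9 other Panc1 libraries. Values without this library are given with the KLF5 results, beside each call it decides, and together after the comparison of the lines.

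KLF10 itself was examined first. In Panc1 it measured 101, 101 and 104 CPM in the siKLF10+TGFβ libraries and 192, 187 and 206 CPM in those with TGFβ alone. The siKLF10 libraries held 83.0, 80.8 and 77.5 CPM and the siCont libraries 140, 137 and 130 CPM. No pair of Panc1 groups overlapped, and the order of levels was TGFβ, siCont, siKLF10+TGFβ and siKLF10. Fewer transcripts per cell and fewer cells that carry them cannot be told apart in such bulk RNA. The siRNA left 52.1% of the KLF10 level with TGFβ and 59.2% without it, log2 fold changes of -0.94 ± 0.059 (SE; adjusted p = 4.96e-11) and -0.76 ± 0.060 (adjusted p = 2.58e-09). Adjusted p-values throughout come from the quasi-likelihood test of edgeR, adjusted by Benjamini-Hochberg over all genes tested, and a gene is called when it is under 0.05. In A549, KLF10 measured 151 and 142 CPM in the siKLF10+TGFβ libraries and 179 and 179 CPM in those with TGFβ alone. The libraries labelled siKLF10 held 102 and 109 CPM and the siCont libraries 110 and 107 CPM. The A549 siKLF10 and siCont libraries overlapped, and KLF10 stood at 97.0% of its siCont level (log2 -0.05, 95% interval -0.21 to 0.12, adjusted p = 0.743). With TGFβ it stood at 81.8% (-0.29 ± 0.078, adjusted p = 0.00775), which missed the threshold when 1 TGFβ library was dropped (-0.29 and adjusted p = 0.0624 for A, -0.29 and 0.0570 for B), with adjusted p between 0.000703 and 0.0624 over 10 alternative settings. KLF10 therefore went against the label in the A549 libraries labelled siKLF10 without TGFβ, and every A549 direction given for them compares the libraries labelled siKLF10 with siCont, not libraries shown to have less KLF10. The siRNA effect on KLF10 was more negative in Panc1 than in A549 by 0.69 ± 0.097 on the log2 scale with TGFβ (adjusted p = 3.33e-06) and by 0.68 ± 0.10 without it (adjusted p = 8.08e-06).

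**Figure D1:**
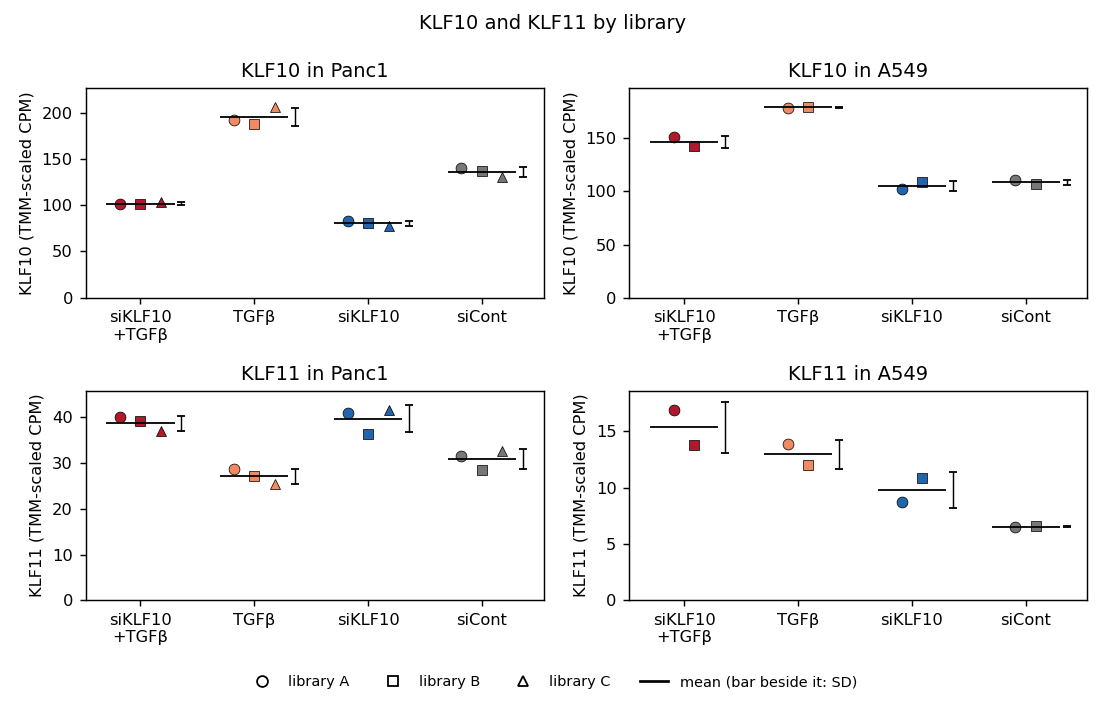
TMM-scaled CPM of KLF10 (top) and KLF11 (bottom) in each library of Panc1 (left) and A549 (right); points are libraries, lines are group means and the bar beside each line is the SD. KLF10 separates all 4 Panc1 groups, whereas in A549 the siKLF10 libraries at 102 and 109 CPM overlap the siCont libraries at 110 and 107 CPM, and KLF11 is higher in siKLF10 than in siCont libraries in both lines.

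Per length, KLF10 was among the most abundant of the 10 genes. Levels per kilobase (CPM divided by the kilobases of the union of exons in GENCODE 29) were highest for KLF6 in Panc1 siCont, 49.3 ± 1.07 (SD, n = 3), followed by KLF10 at 33.9 ± 1.27, KLF13 at 11.1 ± 0.44 and KLF16 at 9.68 ± 1.23, whose libraries overlapped. KLF3, KLF11 and KLF5 followed at 7.31, 7.18 and 5.86 CPM per kb, with overlapping libraries between neighbours. KLF4 at 1.85, KLF7 at 1.20 and KLF9 at 1.06 CPM per kb were the lowest, and the libraries of KLF7 and KLF9 overlapped. In A549 siCont the order opened with KLF13 at 35.3 ± 1.04 CPM per kb (SD, n = 2), KLF10 at 27.1 ± 0.62 and KLF5 at 25.3 ± 1.15. KLF16, KLF3 and KLF6 came next at 16.7, 11.5 and 10.2, then KLF4 and KLF9, whose libraries overlapped, at 4.13 and 3.90. KLF7 at 1.78 and KLF11 at 1.52 CPM per kb closed the A549 order. KLF6 thus had rank 1 of 10 in Panc1 siCont and rank 6 in A549 siCont, KLF11 had ranks 6 and 10, and KLF10 had rank 1 or 2 in all 8 groups.

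**Figure D2:**
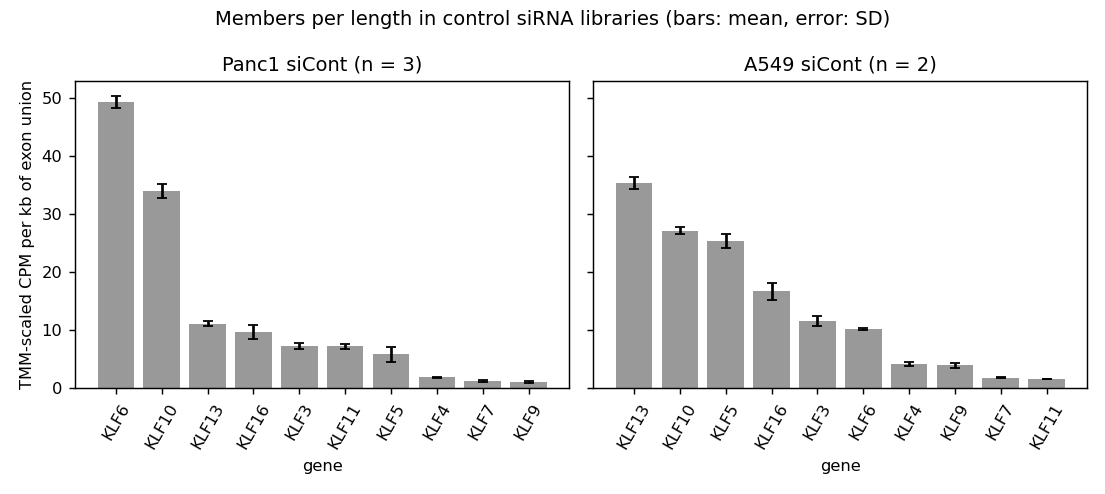
Level per kilobase of exon union of the 10 genes in siCont libraries of Panc1 (left) and A549 (right), in falling order; bars are means and error bars the SD over 3 and 2 libraries. KLF6 at 49.3 and KLF10 at 33.9 CPM per kb stand above the other genes in Panc1, and KLF13 at 35.3, KLF10 at 27.1 and KLF5 at 25.3 CPM per kb lead in A549.

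Among the 9 relatives, KLF11 was the member that rose in Panc1 libraries with the siRNA both with and without TGFβ. In the comparison with TGFβ, KLF11 and KLF7 rose, KLF5 and KLF6 fell and 5 relatives were not called, where 41.7% of all tested genes were called (21.1% higher and 20.6% lower). Without TGFβ, KLF11 rose, KLF3, KLF5 and KLF6 fell and 5 were not called, where 35.6% of genes were called (17.3% higher and 18.3% lower). The median log2 fold change of the relatives was -0.12 with TGFβ and -0.09 without, beside medians of -0.00146 and 0.000907 over all genes tested. A share of 4 of 9 relatives called is close to these backgrounds.

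In the A549 libraries labelled siKLF10, 1 relative of 9 was called in each comparison. With TGFβ, KLF6 fell, where 28.3% of tested genes were called (14.4% higher and 13.9% lower). Without TGFβ, KLF11 rose, where 19.5% of genes were called (9.57% higher and 9.96% lower). The relatives' median log2 fold changes were 0.05 and -0.06, beside 0.00776 and 0.00322 over all genes. KLF10 was not called in the second of these comparisons.

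**Figure D3:**
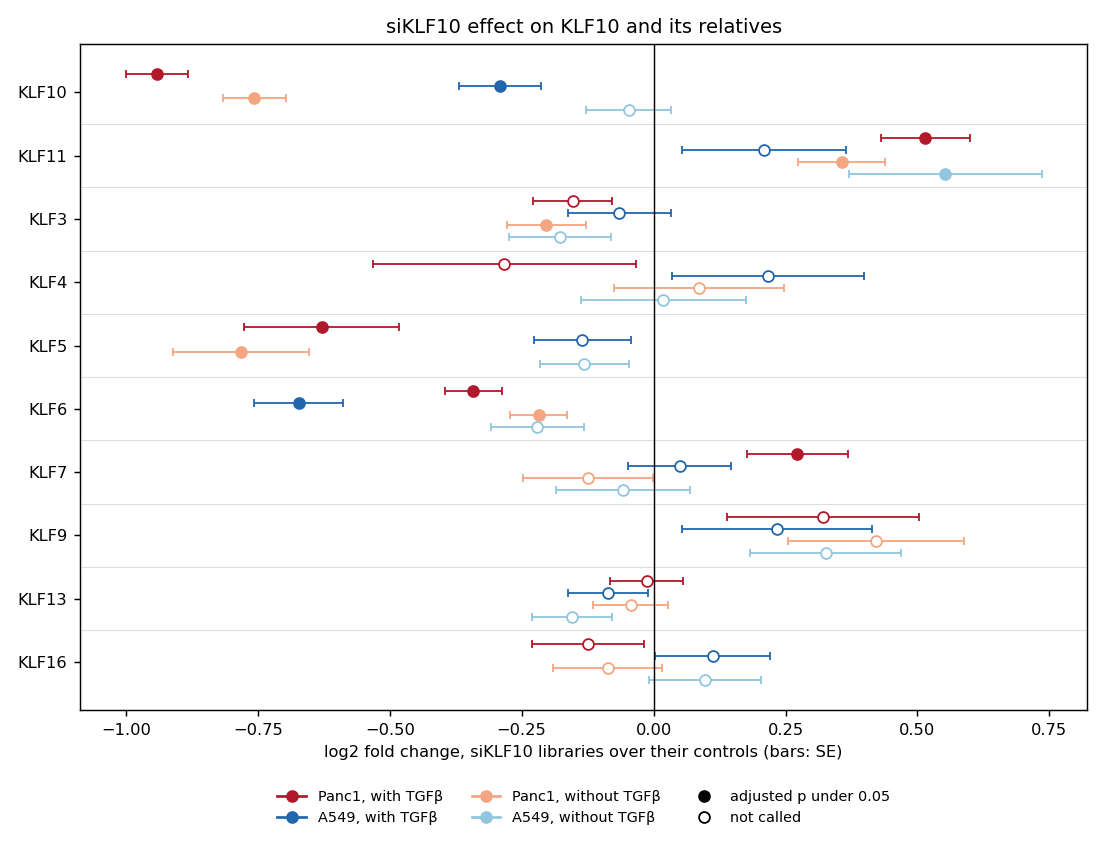
Log2 fold change of libraries with siKLF10 over their controls for each gene, with TGFβ (siKLF10+TGFβ over TGFβ, dark red for Panc1 and dark blue for A549) and without it (siKLF10 over siCont, orange for Panc1 and light blue for A549); bars are the SE and filled points have an adjusted p under 0.05. KLF10 lies at -0.94 and -0.76 in Panc1 and at -0.29 and -0.05 in A549, KLF11 lies right of 0 in all 4 comparisons, and KLF6 lies left of 0 in all 4.

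KLF11 is the closest relative of KLF10, the other TGFβ-inducible early gene. In Panc1 it measured 39.9, 39.2 and 36.9 CPM in siKLF10+TGFβ and 28.6, 27.2 and 25.4 CPM in TGFβ. Without TGFβ it measured 40.9, 36.2 and 41.6 CPM in siKLF10 against 31.5, 28.4 and 32.6 CPM in siCont. All siKLF10 libraries stood above their controls, by 1.43-fold with TGFβ (log2 0.52 ± 0.084, adjusted p = 4.03e-05) and by 1.28-fold without (0.36 ± 0.082, adjusted p = 0.00178). Both calls were kept in all 12 alternative settings run for each, with log2 fold changes of 0.47 to 0.56 and of 0.30 to 0.43. In A549 it measured 16.9 and 13.8 CPM in siKLF10+TGFβ and 13.9 and 12.0 CPM in TGFβ, which overlapped (0.21 ± 0.16, 95% interval -0.11 to 0.53, adjusted p = 0.340). Without TGFβ it measured 8.68 and 10.9 CPM in the libraries labelled siKLF10 and 6.53 and 6.57 CPM in siCont, 1.47-fold higher (0.55 ± 0.18, adjusted p = 0.0363). That A549 call was lost when any 1 of the 4 libraries was left out, at 0.55 without siCont A, 0.56 without siCont B, 0.72 without siKLF10 A and 0.42 without siKLF10 B (adjusted p 0.0528 to 0.230), and under DESeq2 (0.57, adjusted p = 0.129). Its adjusted p ran from 0.0175 to 0.230 over 10 settings. The siRNA effect on KLF11 in Panc1 minus that in A549 was 0.27 ± 0.17 with TGFβ (95% interval -0.07 to 0.61, adjusted p = 0.274) and -0.17 ± 0.19 without it (-0.55 to 0.21, adjusted p = 0.60). An antisense gene overlaps KLF11 in GENCODE 29, and whether counting used strand is not stated, so reads of the 2 cannot be told apart. The same holds for KLF3, KLF7 and KLF16. On the same strand, MIR2355 and KLF7-IT1 overlap KLF7 and UBE2CP4 overlaps KLF13, and a strand setting would not separate their reads.

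In Panc1 the KLF11 rise was small beside the KLF10 loss when both were put per length. There the mean KLF11 level differed by 2.69 CPM per kb with TGFβ and by 2.03 without it, while the mean KLF10 level differed by -23.3 and -13.8 CPM per kb. In A549 the KLF11 differences were 0.55 and 0.75 CPM per kb and those of KLF10 -8.12 and -0.82, so that the 2 were of like size without TGFβ. The ratio of KLF10 to KLF11 per kb was 2.83 ± 0.17 in siKLF10+TGFβ, 7.76 ± 0.81 in TGFβ, 2.19 ± 0.20 in siKLF10 and 4.75 ± 0.44 in siCont (SD, n = 3 each). In A549 the ratio was 10.3 ± 1.09, 14.9 ± 1.54, 11.6 ± 1.31 and 17.8 ± 0.47 in the same groups (SD, n = 2 each). KLF10 thus remained the more abundant of the pair in every group of both lines.

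Summed over the 9 relatives, the level per kb was lower with the siRNA in all 4 comparisons. In Panc1 the sum was 79.1 ± 2.19 CPM per kb in siKLF10+TGFβ and 87.9 ± 2.20 in TGFβ, and 85.8 ± 1.21 in siKLF10 and 94.5 ± 0.42 in siCont (SD, n = 3 each). In A549 it was 97.6 ± 1.91 in siKLF10+TGFβ and 104.7 ± 0.68 in TGFβ, and 104.5 ± 3.0 in siKLF10 and 110.3 ± 3.14 in siCont (SD, n = 2 each). The libraries of the groups did not overlap within any of these 4 pairs. KLF6 made the largest contribution in Panc1, with differences of -9.37 CPM per kb with TGFβ and -6.91 without. In A549 the largest were KLF6 with TGFβ, -6.13 CPM per kb, and KLF13 without it, -3.59, a gene not called there.

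KLF6, a widely expressed activator of the family, fell with the siRNA in 3 of the 4 comparisons. In Panc1 it measured 211, 210 and 207 CPM in siKLF10+TGFβ and 267, 254 and 276 CPM in TGFβ. Without TGFβ it measured 249, 250 and 260 CPM in siKLF10 against 293, 302 and 289 CPM in siCont. Every library with the siRNA was below every control, with log2 fold changes of -0.34 ± 0.054 (adjusted p = 3.03e-05) and -0.22 ± 0.054 (adjusted p = 0.00310). In A549 KLF6 measured 59.6 and 63.0 CPM in siKLF10+TGFβ and 98.1 and 97.7 CPM in TGFβ, which is 1.59-fold lower (-0.67 ± 0.085, adjusted p = 4.16e-06). In the same A549 comparison KLF10 differed by -0.29. Without TGFβ KLF6 measured 51.0 and 54.2 CPM in the A549 libraries labelled siKLF10 and 61.9 and 60.2 CPM in siCont, groups that did not overlap but were not called (-0.22 ± 0.089, adjusted p = 0.0872). With TGFβ the siRNA effect was less negative in Panc1 than in A549 by 0.29 ± 0.098 (adjusted p = 0.0308), a call lost in 6 of 15 settings (adjusted p 0.00568 to 0.120).

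KLF5, an activator of epithelial proliferation, fell with the siRNA in Panc1. It measured 7.38, 9.38 and 7.46 CPM in siKLF10+TGFβ and 12.5, 12.7 and 12.2 CPM in TGFβ (1.55-fold lower, log2 -0.63 ± 0.15, adjusted p = 0.00155). Without TGFβ it measured 14.0, 12.2 and 12.2 CPM in siKLF10 against 27.5, 19.1 and 19.4 CPM in siCont (1.72-fold lower, -0.78 ± 0.13, adjusted p = 6.51e-05). The highest of these values was in siCont A, the library that stood apart in KRT5. Without that library the KLF5 difference was -0.59 ± 0.12 (adjusted p = 0.000542). The 7 basal keratinocyte markers summed to 47.6 to 57.2 CPM in siKLF10+TGFβ, 78.3 to 84.2 in TGFβ, 56.0 to 65.9 in siKLF10 and 109 to 170 CPM in siCont. Over all Panc1 libraries SFN alone measured 34.3 to 79.8 CPM, and KRT14 measured 0 to 0.160 CPM. The part of these markers in the KLF5 result was not tested. In A549 KLF5 was 48.7 and 49.7 CPM in siKLF10+TGFβ libraries, against 54.1 and 54.0 CPM with TGFβ alone. Without TGFβ it was 89.97 and 82.9 CPM in libraries labelled siKLF10, against 91.9 and 98.0 CPM in siCont. Neither A549 pair was called (-0.13 ± 0.091, adjusted p = 0.290, and -0.13 ± 0.085, adjusted p = 0.309), although neither overlapped. The siRNA effect on KLF5 was more negative in Panc1 than in A549 by 0.53 ± 0.18 with TGFβ (adjusted p = 0.0320) and by 0.63 ± 0.16 without it (adjusted p = 0.00584). The first was lost in 9 of 15 settings (adjusted p 0.0153 to 0.0874) and the second without A549 siKLF10 A (-0.54, adjusted p = 0.0546).

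The ranges of other marker lists also stood apart between libraries with and without the siRNA in most pairs given here, with no test made. They overlapped for the Panc1 epithelial list without TGFβ, and for the Panc1 duct and A549 fibroblast lists with TGFβ. The 4 epithelial markers summed in Panc1 to 663 to 782 CPM in siKLF10+TGFβ, 374 to 401 in TGFβ, 693 to 750 in siKLF10 and 633 to 751 CPM in siCont. The 3 duct markers summed there to 277 to 301 CPM in siKLF10+TGFβ, 282 to 292 in TGFβ, 393 to 413 in siKLF10 and 468 to 486 CPM in siCont. In Panc1 the haematopoietic list summed to 37.9 to 54.2 CPM in siKLF10+TGFβ, 155 to 171 in TGFβ, 70.6 to 95.8 in siKLF10 and 262 to 283 CPM in siCont, nearly all of it CD68, while PTPRC stayed at or below 0.171 CPM and CD3E and HBB were at 0. The fibroblast list of 5 genes summed to 33.8 to 38.3, 28.1 to 31.6, 14.7 to 15.01 and 12.2 to 13.6 CPM in the same order of groups. In A549 the basal list summed to 154 to 161 CPM in siKLF10+TGFβ, 103 to 112 in TGFβ, 90.6 to 92.7 in siKLF10 and 73.4 to 76.2 CPM in siCont. Most of it was SFN, at 71.0 to 127 CPM over the A549 libraries. The A549 haematopoietic list summed to 31.5 to 33.5 CPM in siKLF10+TGFβ, 49.6 to 52.9 in TGFβ, 11.7 to 14.4 in siKLF10 and 23.9 to 24.7 CPM in siCont. The A549 duct list, nearly all of it KRT7, summed to 3031 to 3205 CPM in siKLF10+TGFβ, 4034 to 4330 in TGFβ, 2335 to 2352 in siKLF10 and 2228 to 2239 CPM in siCont. In the same order of groups the A549 epithelial list summed to 1807 to 2229, 1624 to 1800, 4798 to 5271 and 4576 to 4739 CPM. The A549 fibroblast list summed to 11.2 to 12.3, 8.46 to 11.3, 2.26 to 3.63 and 1.23 to 1.31 CPM in that order. The part of these lists in the members' results was not tested. The 4 endothelial markers summed to no more than 0.428 CPM in any Panc1 library.

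KLF7, a ubiquitous activator, was called with the siRNA in 1 comparison, Panc1 with TGFβ. It measured 31.6, 32.0 and 32.5 CPM in siKLF10+TGFβ and 27.4, 23.0 and 28.8 CPM in TGFβ (1.21-fold higher, log2 0.27 ± 0.096, adjusted p = 0.0264). The call was lost without TGFβ B (0.18, adjusted p = 0.177), siKLF10+TGFβ B (0.27, adjusted p = 0.0659) or siKLF10+TGFβ C (0.26, adjusted p = 0.0705), with adjusted p from 0.0158 to 0.177 over 12 settings. Without TGFβ it measured 9.42, 9.13 and 10.1 CPM in siKLF10 against 10.2, 8.98 and 11.8 CPM in siCont, which overlapped (-0.12 ± 0.12, adjusted p = 0.468). The difference between these effects was not called (0.40 ± 0.16, adjusted p = 0.164). In A549 the libraries with and without the siRNA overlapped at both settings of TGFβ (0.05, 95% interval -0.15 to 0.25, and -0.06, -0.32 to 0.20).

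KLF3, the CTBP-binding repressor, was 38.6, 35.98 and 39.6 CPM in Panc1 siKLF10 and 47.1, 41.7 and 42.7 CPM in siCont (log2 -0.20 ± 0.075, adjusted p = 0.0394). The groups did not overlap, but the call was lost in 9 of 12 alternative settings. Leaving out siCont A gave -0.15 (adjusted p = 0.173), siCont C -0.22 (0.0516), siKLF10 A -0.22 (0.0604), siKLF10 B -0.16 (0.152) and siKLF10 C -0.23 (0.0581), with adjusted p from 0.0387 to 0.173 over all 12. With TGFβ it was 39.5, 41.8 and 44.4 CPM in siKLF10+TGFβ and 46.9, 46.8 and 45.9 CPM in TGFβ, not called (-0.15 ± 0.074, adjusted p = 0.103). In A549 neither comparison was called (-0.06 with TGFβ, which turned to 0.05 without siKLF10+TGFβ A, and -0.18 without).

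Of the SIN3-recruiting relatives beside KLF11, none was called with the siRNA in either line, although KLF9 passed the threshold in some alternative settings. KLF9, a factor known to respond to glucocorticoid and thyroid hormone, had positive differences in all 4 comparisons: 0.32 ± 0.18 and 0.42 ± 0.17 in Panc1 with and without TGFβ, and 0.23 ± 0.18 and 0.33 ± 0.14 in A549, where the first turned to -0.03 without TGFβ B. It measured 6.25, 7.92 and 7.96 CPM in Panc1 siKLF10 and 5.38, 4.57 and 6.52 CPM in siCont, with an adjusted p of 0.0533. It passed in 6 of 12 settings: without siCont C (0.57, adjusted p = 0.0251), siKLF10 A (0.52, 0.0281), TMM scaling (0.49, 0.0250) or the low-count filter (0.42, 0.0458), with the replicate block (0.42, 0.0332) and with only the compared groups (0.43, 0.0488), and the highest adjusted p was 0.212. In A549 siKLF10 it passed with only the compared groups (0.32, adjusted p = 0.0281). KLF13, first described as a late-activated factor of T lymphocytes, differed by -0.01 and -0.04 in Panc1, both of which changed sign in some settings, and by -0.09 and -0.16 in A549, with and without TGFβ. KLF16 differed by -0.12 and -0.09 in Panc1 and by 0.11 and 0.10 in A549, and with TGFβ these ran from -0.24 (without siKLF10+TGFβ A) to -0.031 (without siKLF10+TGFβ C) in Panc1 and from 0.0035 (without TGFβ A) to 0.22 (without TGFβ B) in A549. KLF4, a factor of epithelial differentiation, differed by -0.28 ± 0.25 and 0.09 ± 0.16 in Panc1, where its counts were only 17 to 81 per library, and by 0.22 ± 0.18 and 0.02 ± 0.16 in A549. At the depth of KLF4 in Panc1, the 95% intervals of -0.80 to 0.23 and -0.25 to 0.42 leave differences of that size undetected.

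With TGFβ itself, KLF3, the CTBP-binding repressor, and KLF16, a SIN3-recruiting factor, had no call in any of the 4 comparisons. Each other member had a call in some or all of them. In Panc1 without siKLF10, KLF10 rose with KLF7 and KLF13, while KLF4, KLF5 and KLF6 fell, 6 of 10 called where 29.0% of tested genes were called (14.0% higher and 15.1% lower). In A549 the 7 called were KLF10, KLF11, KLF6 and KLF7, which rose, and KLF4, KLF5 and KLF9, which fell, where 47.7% of genes were called (24.2% higher and 23.5% lower). After siKLF10, 7 of 10 were called in each line, against 45.0% of genes in Panc1 (22.6% higher and 22.3% lower) and 53.3% in A549 (26.5% higher and 26.8% lower). The comparisons with and without siKLF10 share no libraries, but the TGFβ and siRNA comparisons of a line do share libraries of each of the 4 groups.

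KLF10 rose with TGFβ by 1.44-fold in Panc1 (log2 0.52 ± 0.058, adjusted p = 2.39e-07) and by 1.65-fold in A549 (0.72 ± 0.079, adjusted p = 1.08e-07). After siKLF10 it rose by 1.26-fold in Panc1 (0.34 ± 0.061, adjusted p = 9.71e-05) and by 1.39-fold in the A549 libraries labelled siKLF10 (0.48 ± 0.079, adjusted p = 2.99e-05). In Panc1 siKLF10+TGFβ KLF10 therefore stood at 101 to 104 CPM, below the 130 to 140 CPM of siCont. The change of the TGFβ response with the siRNA was -0.18 ± 0.084 in Panc1 (adjusted p = 0.237) and -0.24 ± 0.11 in A549 (adjusted p = 0.228), neither called.

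KLF11, named with KLF10 for induction by TGFβ, rose with it in A549 but had no call in Panc1. From the library values above, it was 1.99-fold higher in A549 TGFβ than in siCont (log2 1.00 ± 0.18, adjusted p = 7.09e-05). In Panc1 the TGFβ and siCont libraries overlapped (-0.19 ± 0.085, 95% interval -0.37 to -0.01, adjusted p = 0.0979). The TGFβ effect in Panc1 was lower than that in A549 by 1.11 ± 0.18 on the log2 scale (adjusted p = 1.34e-05). After siKLF10 the differences were -0.03 ± 0.081 in Panc1 and 0.65 ± 0.16 in A549 (adjusted p = 0.777 and 0.00175). The A549 value was not called without siKLF10 A (0.48, adjusted p = 0.0699), with adjusted p from 6.20e-05 to 0.0699 over 10 settings.

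KLF7 had the largest rise with TGFβ of the 10 genes in each line. In Panc1 it was 31.6 to 32.5 CPM in siKLF10+TGFβ and 9.13 to 10.1 CPM in siKLF10, and 23.0 to 28.8 CPM in TGFβ and 8.98 to 11.8 CPM in siCont. These are rises of 3.35-fold (log2 1.74 ± 0.11, adjusted p = 1.21e-11) and 2.54-fold (1.35 ± 0.11, adjusted p = 1.22e-09). In A549 it measured 52.6 and 57.6 CPM in siKLF10+TGFβ against 15.4 and 14.0 CPM in libraries labelled siKLF10. With no siKLF10 it measured 53.1 and 53.8 CPM in TGFβ, against 15.02 and 15.8 CPM in siCont. The A549 rises were 3.74-fold (1.90 ± 0.11, adjusted p = 3.21e-12) and 3.47-fold (1.80 ± 0.11, adjusted p = 6.98e-12). No library with TGFβ overlapped one without it in either line.

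KLF4 and KLF5 fell with TGFβ in both lines. KLF5 fell by 0.82 ± 0.13 on the log2 scale in Panc1 (adjusted p = 2.97e-05) and by 0.81 ± 0.089 in A549 (adjusted p = 1.05e-07). Without the Panc1 siCont library A its fall there was -0.63 ± 0.12 (adjusted p = 0.000271). KLF4 measured 1.53, 2.08 and 1.77 CPM in Panc1 TGFβ and 5.38, 5.51 and 5.39 CPM in siCont, 3.03-fold lower (-1.60 ± 0.19, adjusted p = 8.56e-07). In A549 it measured 7.55 and 7.13 CPM in TGFβ and 12.9 and 11.3 CPM in siCont, 1.65-fold lower (-0.72 ± 0.17, adjusted p = 0.00172). The KLF4 response was more negative in Panc1 by 0.80 ± 0.27 (adjusted p = 0.0216), a call lost without Panc1 TGFβ A (-0.71, adjusted p = 0.0659), A549 siCont B (-0.71, 0.0747) or A549 TGFβ A (-0.74, 0.10). After siKLF10 KLF4 fell by 1.97 ± 0.20 in Panc1 (adjusted p = 5.19e-08) and by 0.52 ± 0.16 in A549 (adjusted p = 0.0101), and KLF5 by 0.66 ± 0.15 and 0.81 ± 0.088 (adjusted p = 0.000854 and 7.06e-08). The A549 KLF4 call was lost in 3 of 10 settings: without siKLF10 A (-0.49), without siKLF10+TGFβ B (-0.31) and under DESeq2 (-0.49, adjusted p = 0.0858).

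**Figure D4:**
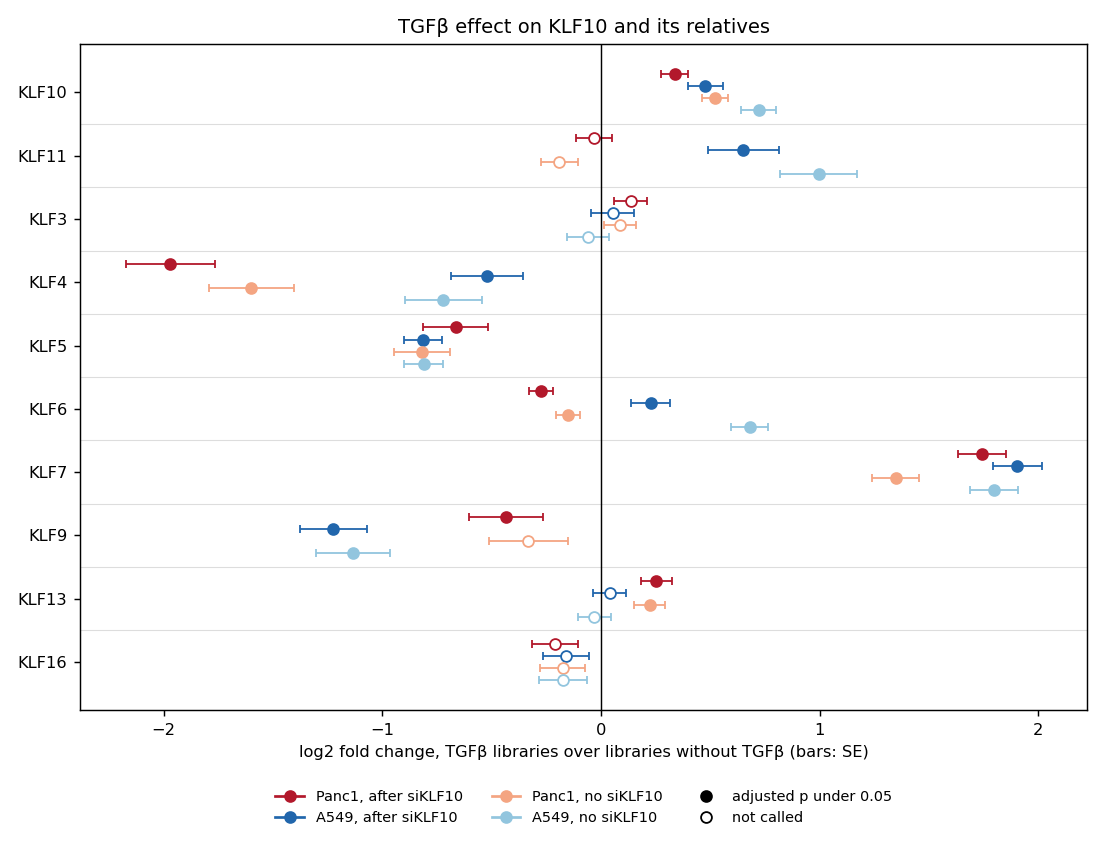
Log2 fold change of libraries with TGFβ over libraries without it for each gene, after siKLF10 (siKLF10+TGFβ over siKLF10, dark red for Panc1 and dark blue for A549) and with no siKLF10 (TGFβ over siCont, orange for Panc1 and light blue for A549); bars are the SE and filled points have an adjusted p under 0.05. KLF7 lies between 1.35 and 1.90, KLF4 and KLF5 lie left of 0 in all 4 comparisons, and KLF6 and KLF11 lie on different sides in the 2 lines or near 0 in Panc1.

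KLF6 responded to TGFβ in opposite directions in the 2 lines. In A549 TGFβ it was 1.60-fold higher than in siCont (log2 0.68 ± 0.085, adjusted p = 8.27e-07). In Panc1 it was 1.11-fold lower (-0.15 ± 0.054, adjusted p = 0.0399). The Panc1 call was lost without siCont A (-0.15, adjusted p = 0.0718), siCont B (-0.13, 0.149), TGFβ A (-0.15, 0.0987) or TGFβ B (-0.12, 0.192), within 0.0149 to 0.192 over 12 settings. It was also lost without the low-count filter (-0.14, adjusted p = 0.121) and with the replicate block (-0.15, adjusted p = 0.0564). The line difference was -0.75 ± 0.098 (adjusted p = 2.08e-07). After siKLF10 KLF6 fell by 0.27 ± 0.054 in Panc1 (adjusted p = 0.000276). In the A549 libraries labelled siKLF10 it was 1.17-fold higher with TGFβ (0.23 ± 0.088, adjusted p = 0.0346), a call lost in 6 of 10 settings. These were without siKLF10 A (0.19), siKLF10 B (0.26) or siKLF10+TGFβ B (0.19), and without TMM scaling (0.14, adjusted p = 0.178). It was lost as well under DESeq2 (0.24, adjusted p = 0.0820) and with only the compared groups (0.22, adjusted p = 0.101).

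KLF9 fell with TGFβ in A549 and KLF13 rose in Panc1. KLF9 measured 11.1 and 6.83 CPM in A549 TGFβ and 21.8 and 18.6 CPM in siCont, 2.19-fold lower (log2 -1.13 ± 0.17, adjusted p = 9.12e-06), and 10.5 and 11.1 CPM in siKLF10+TGFβ and 25.5 and 25.3 CPM in siKLF10, 2.34-fold lower (-1.22 ± 0.15, adjusted p = 6.95e-07). In Panc1 KLF9 was 3.42, 4.40 and 5.31 CPM in TGFβ and 5.38, 4.57 and 6.52 CPM in siCont, which overlapped (-0.33 ± 0.18, adjusted p = 0.180). After siKLF10 it was 5.07, 5.47 and 5.99 CPM with TGFβ against 6.25, 7.92 and 7.96 CPM without (-0.43 ± 0.17, adjusted p = 0.0417), a call lost without siKLF10 B or C (-0.38 each, adjusted p = 0.113 and 0.131) or siKLF10+TGFβ A or B (-0.37 and -0.43, adjusted p = 0.119 and 0.0894), within 0.0141 to 0.131 over 12 settings. This KLF9 call was also lost under DESeq2 (-0.42, adjusted p = 0.0779). KLF13 was 91.7, 84.2 and 92.05 CPM in Panc1 TGFβ and 74.2, 75.6 and 79.9 CPM in siCont (0.22 ± 0.070, adjusted p = 0.0190). That call was lost without siCont A (0.20, adjusted p = 0.0697), siCont B (0.21, 0.0620), TGFβ A (0.21, 0.0747) or TGFβ C (0.20, 0.0697), within 0.00906 to 0.0747 over 12 settings. After siKLF10 it rose by 0.25 ± 0.071 (adjusted p = 0.00555), not called without TMM scaling (0.16, adjusted p = 0.0718). KLF13 in A549 and KLF3 and KLF16 in both lines had no call with TGFβ, although KLF16 after siKLF10 in Panc1 (-0.21, adjusted p = 0.109) passed without siKLF10+TGFβ A (-0.33, adjusted p = 0.0145) and without TMM scaling (-0.31, adjusted p = 0.0223).

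**Figure D5:**
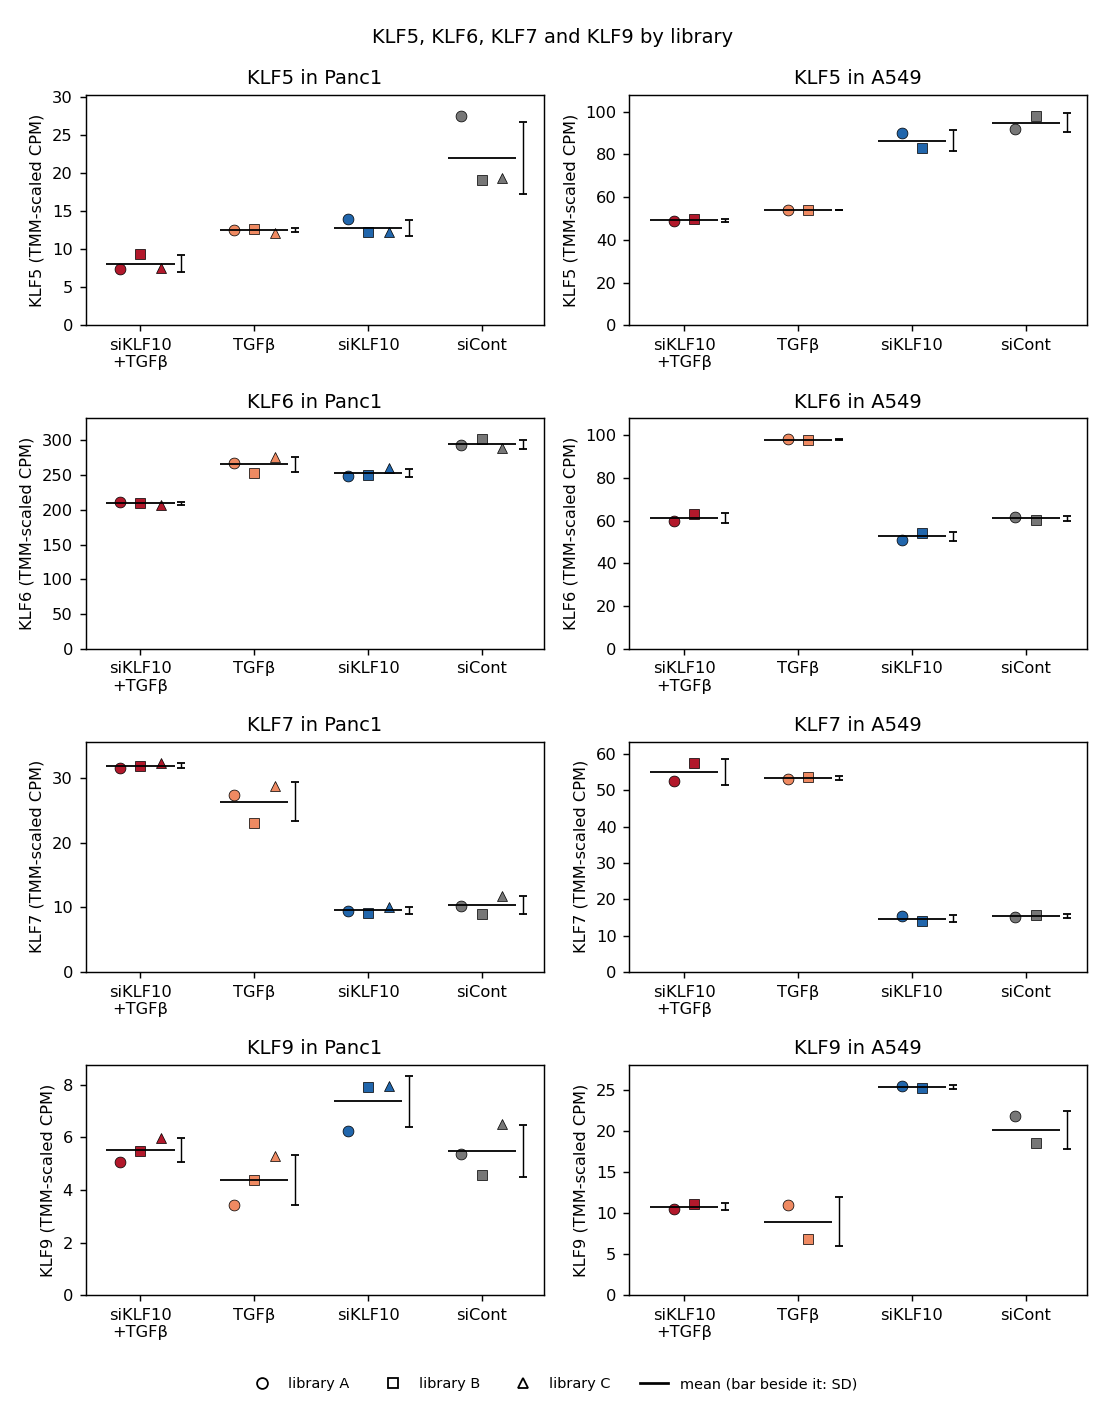
TMM-scaled CPM of KLF5, KLF6, KLF7 and KLF9 (rows) in each library of Panc1 (left) and A549 (right); points are libraries, lines are group means and the bar beside each line is the SD. KLF7 libraries with TGFβ lie between 23.0 and 32.5 CPM in Panc1 and all above 8.98 to 11.8 CPM in the libraries without it, and KLF6 in A549 TGFβ at 98.1 and 97.7 CPM stands above the 3 other A549 groups.

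By the test of a changed TGFβ response, 1 relative was called, in A549. There the libraries labelled siKLF10 without TGFβ had KLF10 at 97.0% of siCont. In Panc1 none of the 10 genes was called by edgeR, and none by DESeq2, where 4.42% of tested genes were called (2.56% higher and 1.86% lower), and 2 (KLF7 and KLF10) had an unadjusted p under 0.05. In A549 KLF6 was called, 1 of 10 genes, which is close to the 6.49% of all genes called (3.26% higher and 3.23% lower). Its response to TGFβ was 0.23 after siKLF10 and 0.68 without it, a difference of -0.45 ± 0.12 (adjusted p = 0.0291). The call was lost without siCont A (-0.48, adjusted p = 0.101), siCont B (-0.44, 0.145), TGFβ A (-0.45, 0.122), TGFβ B (-0.45, 0.106), siKLF10 A (-0.50, 0.0743) or siKLF10 B (-0.43, 0.0996) and under DESeq2 (-0.45, 0.0787), with adjusted p from 0.00602 to 0.145 over 13 settings.

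Between the lines, effects of the 10 genes were compared in a joint model of 15058 genes. The siRNA effect differed for 3 of 10 with TGFβ (KLF10, KLF5 and KLF6), where 19.8% of genes differed (7.52% higher and 12.3% lower in Panc1), and for 2 of 10 without it (KLF10 and KLF5), where 17.2% differed (8.59% higher and 8.65% lower). The TGFβ effect differed for 5 of 10 (KLF11, KLF4, KLF6, KLF9 and KLF13), where 31.0% differed (17.1% higher and 13.8% lower). KLF7 did not reach the threshold there (-0.37 ± 0.16, adjusted p = 0.0825), and it did without siCont B (-0.46, adjusted p = 0.0360) or TGFβ C (-0.44, adjusted p = 0.0455) of Panc1. It also did with RLE scaling (-0.42, adjusted p = 0.0460) and without the low-count filter (-0.47, adjusted p = 0.0288). Its adjusted p ran from 0.0288 to 0.277 over 15 settings.

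Without the Panc1 siCont library A, KLF10 differed from siCont by -0.74 ± 0.067 in siKLF10 (adjusted p = 6.00e-08) and by 0.55 ± 0.067 in TGFβ (adjusted p = 1.83e-06). The KLF11 difference in siKLF10 was 0.37 ± 0.094 (adjusted p = 0.00508) and that of KLF6 -0.22 ± 0.061 (adjusted p = 0.00764). With TGFβ, KLF4 differed by -1.61 ± 0.21 and KLF7 by 1.34 ± 0.13 (adjusted p = 5.64e-06 and 4.19e-08). KLF16, not called, was at -0.18 in siKLF10 (adjusted p = 0.210) and -0.26 in TGFβ (adjusted p = 0.0748), and KLF9 at 0.40 and -0.35 (adjusted p = 0.114 and 0.225). The line difference of the siRNA effect on KLF5 was then -0.44 ± 0.14 (adjusted p = 0.0311) and that on KLF10 -0.66 ± 0.10 (adjusted p = 3.05e-05). The line differences of the TGFβ effect were -1.10 for KLF11, -0.81 for KLF4, -0.76 for KLF6, 0.86 for KLF9 and 0.31 for KLF13, all called.

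The wider family and partner genes were read by count. Of 16 other KLF and SP genes, 8 were tested in Panc1 and 11 in A549. In Panc1 the siRNA comparison with TGFβ had 1 higher and 3 lower, and that without it had 3 lower, while in A549 1 rose in each comparison. Over all tested genes 41.7% and 35.6% were called in these Panc1 comparisons and 28.3% and 19.5% in those of A549, with and without TGFβ, so 4 and 3 of 8 in Panc1 are close to the background. SP2 fell in Panc1 by 0.81 ± 0.087 with TGFβ and by 0.79 ± 0.086 without, and SP1, which binds GC boxes, by 0.30 ± 0.056 and 0.33 ± 0.056 (adjusted p 0.000171 or less for each). KLF2, a factor known from endothelium and T cells, rose with the siRNA in Panc1 with TGFβ by 0.59 ± 0.15 (adjusted p = 0.00416) and fell without it by 0.44 ± 0.16 (adjusted p = 0.0404), and the difference of 1.03 ± 0.23 between these was called (adjusted p = 0.00923). In A549 KLF2 rose by 0.62 ± 0.18 and 0.58 ± 0.16 with and without TGFβ (adjusted p = 0.0123 and 0.0125). KLF12 rose with TGFβ by 1.60 ± 0.14 in A549 (adjusted p = 4.26e-09) and by 0.37 ± 0.098 in Panc1 (adjusted p = 0.00583).

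All 18 SIN3 and CTBP corepressor genes were tested in both lines. In the Panc1 siRNA comparisons, 6 were higher and 2 lower with TGFβ, and 1 was higher and 2 lower without it, and in A549 2 rose and 1 fell with TGFβ and 1 rose without it. Beside the same backgrounds of 41.7% and 35.6% in Panc1 and 28.3% and 19.5% in A549, 8 of 18 is close to the share of all genes, and 3, 3 and 1 of 18 are below it. CTBP1, the partner of KLF3, fell in Panc1 by 0.43 ± 0.093 and 0.34 ± 0.092 with and without TGFβ (adjusted p = 0.000945 and 0.00706), and RBBP7, a histone-binding subunit, by 0.32 ± 0.057 and 0.35 ± 0.057 (adjusted p = 0.000126 and 4.87e-05). ARID4B rose there by 0.39 ± 0.081 and 0.25 ± 0.081 with and without TGFβ (adjusted p = 0.000588 and 0.0213). ING1 rose in Panc1 with TGFβ by 0.32 ± 0.10 (adjusted p = 0.0182). The list's medians were 0.09 and 0.02 in Panc1 and 0.07 and -0.01 in A549, beside -0.00146, 0.000907, 0.00776 and 0.00322 over all genes.

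Of 21 TGFβ signalling genes, all tested, 11 rose and 4 fell with the siRNA in Panc1 with TGFβ and 6 rose and 5 fell without it. In A549 10 rose and 3 fell with TGFβ, and 9 rose and none fell without it. The shares of all genes called were 41.7% and 35.6% in Panc1 and 28.3% and 19.5% in A549. SMAD6, an inhibitory SMAD, rose with the siRNA in Panc1 by 0.81 ± 0.094 and 0.70 ± 0.092 with and without TGFβ (adjusted p = 5.10e-07 and 3.44e-06). PMEPA1, a direct TGFβ target, rose with TGFβ by 2.48 ± 0.059 in Panc1 and by 3.69 ± 0.082 in A549. Over the list, 13 rose and 3 fell with TGFβ in Panc1, where 29.0% of all genes were called, and 15 rose and 3 fell in A549, where 47.7% were.

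The genes whose profile was most like that of KLF10 were found in each line by the root mean square difference of centred log2 CPM over its libraries. Over 12 Panc1 libraries and 10603 genes averaging at least 5 CPM they were STK39 (0.105), C7orf58 (0.113), DPP9 (0.113), MIR100HG (0.140) and SPRY4 (0.144), where the median gene had 0.513. STK39 averaged 35.6 CPM in siKLF10+TGFβ, 62.8 in TGFβ, 30.3 in siKLF10 and 49.1 in siCont. Over 8 A549 libraries and 11229 genes they were PARP3 (0.0547), FLNA (0.0557), VAT1 (0.0570), TMC7 (0.0637) and PAPSS1 (0.0652), where the median gene had 0.396. None of the 5 nearest was shared between the lines. Of the relatives, KLF3 came nearest in Panc1 at rank 1263 (0.381) and KLF6 in A549 at rank 461 (0.171), while KLF11 ranked 9592 in Panc1 and 3362 in A549. KLF4 was below the 5 CPM limit in Panc1.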

How the data were processed

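RNA-seq of 20 libraries was analysed. Raw gene counts were deposited by the authors, 1 table a library. The submitters' processing notes name DESeq2, HTSeq 0.6.0, Bowtie2, TopHat and hg19, and do not say which tool did which step. No source used here states the strand setting. Each table listed 23368 genes; summary lines that name no gene were left out, and the share of unique reads outside annotated genes was 33.6 to 36.9% (Panc1) or 57.6 to 60.1% (A549). The authors also deposited comparison tables that hold log2 values (fold changes and their errors), a linear ratio in some, test scores, p-values and a base mean, which is a normalized signal; these were used only for the comparison in the closing section.

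Counts were tested with edgeR 4.0.16 in R 4.3.3: filterByExpr (minimum count 10, minimum total 15), TMM scaling, and robust quasi-likelihood tests of a group-means model per line with all groups of the line sharing 1 spread (8 residual degrees of freedom in Panc1, 4 in A549, 12 in the joint model of 20 libraries). Every adjusted p is Benjamini-Hochberg over all tested genes, called under 0.05. Levels are TMM-scaled CPM computed per line; a floor of 3 counts is 0.193 to 0.269 CPM in Panc1 and 0.157 to 0.438 CPM in A549, and covers counting error only. The 16 replicate pairs differed by more than sampling noise (chi-square per degree of freedom 2.06 to 12.5). The test was checked on simulated data. Alternatives were RLE scaling, no TMM, no low-count filter, DESeq2 1.42.0, the compared groups alone, a replicate block and leaving out each library. All 10 genes are named in every comparison. The members, lists and tests were chosen with earlier results of these data known. Genes like KLF10 were the 5 per line with the smallest root mean square difference, with at least 5 CPM and a prior count of 2.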

Additional observations from a re-analysis of the deposited data

Results flagged for a closer look

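Differences between the lines or between treatments in the size of an effect were called for 11 results, each by a test of the difference itself (edgeR's quasi-likelihood test, log2 scale, ± SE). The siRNA effect on KLF10 in Panc1 minus that in A549 was -0.69 ± 0.097 with TGFβ (adjusted p = 3.33e-06) and -0.68 ± 0.10 without it (adjusted p = 8.08e-06), and both calls were kept in all 15 alternative settings. For KLF5 the same differences were -0.53 ± 0.18 (adjusted p = 0.0320) and -0.63 ± 0.16 (adjusted p = 0.00584), and for KLF6 with TGFβ 0.29 ± 0.098 (adjusted p = 0.0308).

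The TGFβ effect in Panc1 minus that in A549 was -1.11 ± 0.18 for KLF11 (adjusted p = 1.34e-05) and -0.75 ± 0.098 for KLF6 (adjusted p = 2.08e-07), both kept in all 15 settings. It was -0.80 ± 0.27 for KLF4 (adjusted p = 0.0216), 0.88 ± 0.26 for KLF9 (adjusted p = 0.00928) and 0.33 ± 0.11 for KLF13 (adjusted p = 0.0151), each lost in 3 of 15. The KLF9 call was lost without Panc1 TGFβ C (0.70, adjusted p = 0.0557), A549 siCont A (0.75, 0.0537) or A549 TGFβ B (0.61, 0.0976), and stood at 1.33 (0.00155) without A549 TGFβ A, and the KLF13 call without A549 siCont A (0.30, 0.0714), A549 TGFβ B (0.29, 0.0879) or the low-count filter (0.23, 0.173).

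In A549 the TGFβ response of KLF6 after siKLF10 minus that without it was -0.45 ± 0.12 (adjusted p = 0.0291), lost in 7 of 13 settings. KLF10 in the A549 libraries labelled siKLF10 without TGFβ was at 97.0% of siCont, so A549 values from them do not compare less KLF10 with more.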

How the results depend on the processing

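Of 51 called results, 34 were kept whichever single library was left out, 40 in every other setting and 33 in both. In A549 siKLF10 against siCont, 1 member was called, 0 under DESeq2, 4 (KLF11, KLF6, KLF9 and KLF13) with only the compared groups, and 0 without any 1 of its 4 libraries. In the A549 test of a changed TGFβ response 1 was called, 0 under DESeq2 and 0 to 1 with a library left out. With a library left out, 1 to 2 members were called in A549 siKLF10+TGFβ against TGFβ, 4 to 7 in A549 siKLF10+TGFβ against siKLF10, 1 to 2 and 1 to 3 for the line difference of the siRNA effect without and with TGFβ, and 3 to 6 for that of TGFβ. Leaving out 1 of 2 libraries assumes that the lone one varies like the other groups; the cause of these changes was not tested. Without TMM scaling the log2 difference turned to 0.025 for KLF13 in Panc1 siKLF10, to -0.033 and -0.048 for KLF3 and KLF13 in A549 siKLF10+TGFβ against siKLF10, and to 0.013 for KLF7 in the line difference of the siRNA effect without TGFβ. With libraries left out, uncalled log2 differences that changed sign ran, with the siRNA in Panc1, from -0.038 to 0.23 (KLF4), -0.18 to 0.00062 (KLF16) and, with TGFβ, -0.083 to 0.021 (KLF13). In A549 they ran from -0.068 to 0.13 (KLF4), -0.15 to 0.013 (KLF7) and -0.030 to 0.21 (KLF16) without TGFβ, and from -0.20 to 0.048 (KLF3), -0.022 to 0.11 (KLF7) and -0.025 to 0.67 (KLF9) with it. For TGFβ they ran from -0.093 to 0.0018 (KLF11, Panc1 after siKLF10), -0.12 to 0.023 and -0.071 to 0.012 (KLF3 and KLF13, A549), and -0.081 to 0.17 and -0.019 to 0.11 (the same after siKLF10), and the KLF7 line difference from -0.13 to 0.071. The labels do not say that library letters pair the samples. Same-letter deviations from group means correlated at -0.156 to 0.312 in Panc1 (2 of 18 pairs over 0.1) and -0.0354 to 0.116 in A549. The highest Panc1 values were between siKLF10 and siKLF10+TGFβ, 0.312 for A and 0.121 for B. With 2 libraries a group in A549, A and B deviate by equal and opposite amounts, so their pairs gave the same values. Libraries of different letters were not compared, so pairing was not tested. With the letter as a replicate block KLF9 in Panc1 siKLF10 was called (adjusted p = 0.0332) and KLF6 in Panc1 TGFβ was not (adjusted p = 0.0564). KLF4 and KLF9 in Panc1, with the lowest counts, had the widest errors.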

Other observations

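The authors' deposited table for A549 TGFβ against siCont did not match the count tables. Its log2 fold changes correlated at Pearson r = 0.153 with those from the counts over 13681 genes, a description across genes, with the same sign for 54.7% of them and for 3 of the 10 members. With its ratio turned round, these would be -0.153, 45.3% and 7 of 10. The authors' deposited tables for the 5 other comparisons correlated at 0.846 to 0.952, with the same sign for 88.9 to 99.8% of genes. The table does not state the direction of its ratio, which its name was taken to give. The names of the tables for siKLF10+TGFβ and TGFβ put TGFβ first in both lines, and these were read as siKLF10+TGFβ over TGFβ. The order in a name is therefore not a sure guide to direction. In the authors' deposited A549 TGFβ table KLF10 had a log2 fold change of -0.21, KLF4 2.76 and KLF9 1.12, where the counts gave 0.72, -0.72 and -1.13. That table gave KLF5 a base mean of 5773, while KLF5 had 364 to 538 counts in the A549 TGFβ libraries and 1119 to 1266 in the siCont libraries. The authors' deposited table for A549 siKLF10 against siCont held 9 of the 10 members, without KLF7. It gave KLF10 a base mean of 2430, while KLF10 had 779 to 1172 counts in libraries labelled siKLF10 and 1220 to 1520 in siCont. Its match in fold changes therefore does not show that it was made from these counts. All A549 TGFβ values in the results come from the counts.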
